A study of Drosophila melanogaster with 15 samples.

Results

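The mitochondrial ribosomal proteins of Drosophila melanogaster were examined in larval brains and imaginal discs of flies with altered centrosome number. Members were the genes whose symbol begins with mRpL or mRpS, the names given to proteins of the large and the small subunit, and whose probe set on the array carried a single gene symbol. A gene with more than 1 such probe set was represented by the one with the highest mean. This gave 69 genes, 44 mRpL and 25 mRpS, out of 11982 genes with a probe set of their own. The RefSeq gene table of Release 6 lists 73 genes with such symbols. Of the 4 others, mRpS10 and mRpL53 share a probe set with another gene, and mRpL34 and mRpL37 are not analysed here. All 69 members passed the filter on low values (a log2 value of at least 4 on at least 3 arrays), as did 6973 genes in all, and all 69 reached 4 on every array.

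The arrays held RNA from 5 groups of 3 samples, each pooled from the dissected tissue of 10 wandering 3rd instar larvae raised at 25 °C. The altered strains were the DSas-4 mutant and the DSas-6 mutant, which by the series title have no centrosomes, and a strain overexpressing Sak, here called SakOE, which has too many. The wild types were w67, whose genotype label reads white wild type, and OregonR. The labels name no allele, promoter or driver and describe the 3 samples in each group as biological replicates. The question put to these genes was whether each altered strain differed from both wild types.

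Mitochondria carry their own ribosomes, which translate the few proteins encoded by mitochondrial DNA, nearly all of them subunits of the respiratory chain and the ATP synthase. The proteins of these ribosomes are encoded in the nucleus, made in the cytosol and imported. Some descend from bacterial ribosomal proteins and keep the bacterial number, and others were added in the mitochondrial lineage. In the fly, mutations of tko, which encodes the mitochondrial form of S12, cause bang sensitivity and slow development, bonsai encodes the mitochondrial form of S15, and mRpL12 is needed for growth driven by Cyclin D and Cdk4. By the number in the symbol alone, 40 of the 69 members were grouped as shared with bacteria and 29 as mitochondrial. The number does not settle the family of every member, and the families were not checked.

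Values were log2 expression, with each array centred on the median of the 6973 tested genes. Array medians before centring lay between 8.69 and 8.86, and replicates correlated at r of at least 0.988. Sas-4 averaged 4.79 in the DSas-4 mutant, against 7.55 in w67 and 7.72 in OregonR, and Sas-6 averaged 3.23 in the DSas-6 mutant, against 7.67 and 7.69. SAK averaged 7.59 on the arrays labelled SakOE, against 7.78 in w67 and 7.55 in OregonR, and was not called there. Whether its probe set lies in the overexpressed RNA is not known here, so SakOE stands as the submitters' label.

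Markers of the labelled tissues were present: all 3 of neurons, 4 of neuroblasts, 2 of glia, 4 of wing, leg and haltere discs and 4 of eye discs with a probe set of their own passed the filter. Some were called: repo of glia was lower in DSas-4 (differences -0.62 from w67 and -0.41 from OregonR), ey (-0.34 and -0.36) and so (-0.32 and -0.20) of the eye disc were lower in DSas-6, and wor of neuroblasts was lower in SakOE (-0.30 and -0.30). The other markers of these lists were not called. The other glial marker, moody, lay higher in DSas-4 (0.20 and 0.11). In DSas-6 eya differed by -0.26 and -0.25 and ato by -0.10 and 0.01. In SakOE dpn, mira and ase lay below both wild types. The neuronal gene elav averaged 11.88 in w67 and 12.95 in OregonR, a difference of -1.07 (limma adjusted p = 1.5e-05). The neuronal genes nSyb and brp differed by -0.08 and 0.20 in that comparison, and neither passed. None of 5 salivary gland, 4 gut, 3 testis and 1 muscle marker with a probe set of their own passed the filter, but on OregonR replicate 3 alone the gut gene Jon65Aiii read 5.83 and alphaTry 2.72, against 2.17 to 2.18 on the other 14 arrays. The mean level of the fat body markers was 3.95 to 5.43 on the DSas-4 arrays, 4.38 to 4.8 on the DSas-6 arrays, 4.34 to 4.99 on the SakOE arrays, 4.61 to 5.49 on the w67 arrays and 3.68 to 4.46 on the OregonR arrays. The mean level of the 4 haemocyte markers was 5.39 to 6.54 on the DSas-4 arrays, 4.34 to 4.60 on the DSas-6 arrays, 5.01 to 5.12 on the SakOE arrays, 5.08 to 5.33 on the w67 arrays and 4.68 to 4.89 on the OregonR arrays, with NimC1 near the lowest value throughout. The part of these markers in the results below was not tested.

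The deposited values took 4 distinct lowest values, with DSas-4 and w67 sharing 1, and exact ties were found only between arrays with the same lowest value. DSas-4 and w67 may thus have been normalized together and the other groups apart, and in every other comparison the effect of such a run cannot be told apart from that of the group.

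A gene was called in an altered strain when limma's tests against w67 and against OregonR both gave an adjusted p under 0.05 and the differences had the same sign. Only 3 of the 69 members were called in any strain. mRpS18A fell in DSas-4 and in SakOE, mRpL20 fell in DSas-4, and mRpS31 rose in SakOE. The other 66 members differed from a wild type by between -0.34 and 0.29 on the log2 scale over all 6 differences, at most 1.27-fold. In tissue RNA a lower level can come from fewer cells of a type or from less RNA per cell, and these cannot be told apart.

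In the DSas-4 mutant 2 of 69 members were called lower and 0 higher by limma, against 1.81% and 1.62% of all tested genes (3.43% in both directions). At an unadjusted p under 0.05 against both wild types there were 5 lower and 1 higher, beside 377 lower and 349 higher of all 6973 genes. In the DSas-6 mutant 0 of 69 members were called, against 6.24% of all genes (2.7% higher, 3.54% lower). At the unadjusted level there were 2, both higher, beside 449 higher and 577 lower of all 6973 genes. In SakOE 1 member was called higher and 1 lower, against 5.21% and 4.06% of all genes (9.26% in both directions).

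**Figure D1:**
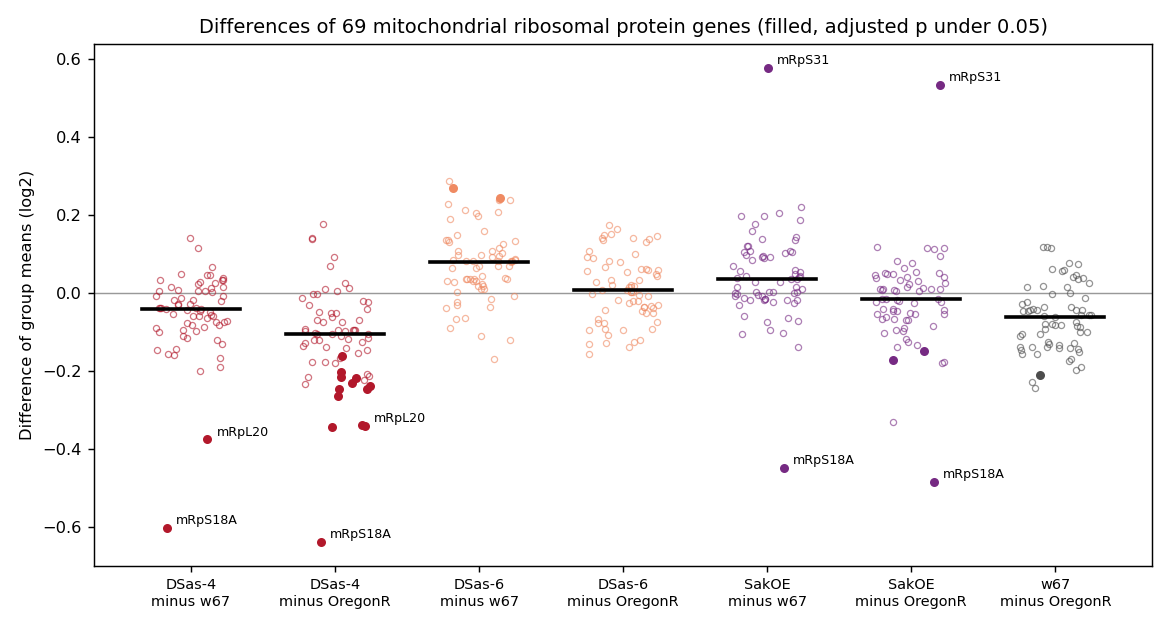
Difference of group means on the log2 scale (y axis) for each of the 69 genes in the 7 comparisons (x axis); filled points have an adjusted p under 0.05 (limma), open points do not, and black bars are the medians. Most genes lie within 0.3 of 0, and mRpS18A (-0.60 and -0.64 in DSas-4, -0.45 and -0.48 in SakOE) and mRpS31 (0.58 and 0.53 in SakOE) stand apart.

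mRpS18A, on chromosome arm 3R, encodes 1 of 3 fly paralogues of the S18 family (mRpS18A, mRpS18B and mRpS18C), and its mammalian counterpart sits in the large subunit despite its name. The DSas-4 arrays read 9.82, 9.92 and 9.55, and the SakOE arrays 9.89, 9.92 and 9.95. The w67 arrays read 10.39, 10.40 and 10.30, and the OregonR arrays 10.33, 10.40 and 10.48. All 6 arrays of these altered strains lay below all 6 wild-type arrays, while the DSas-6 arrays, at 10.35, 10.36 and 10.35, lay among the wild types. DSas-4 averaged 9.76 ± 0.19 (SD, n = 3) and was lower by 0.60 on the log2 scale than w67, which is 1.52-fold (difference -0.60, SE 0.08, limma adjusted p = 0.0004). Against OregonR its difference was -0.64, or 1.56-fold (adjusted p = 0.000151). SakOE averaged 9.92 ± 0.029 (SD, n = 3), with differences of -0.45 from w67 (1.36-fold, limma adjusted p = 0.00154) and -0.48 from OregonR (1.40-fold, adjusted p = 0.000765). The 2 strains were compared with the same wild-type arrays. The other S18 paralogues were not called: mRpS18B spanned 0.13 over its 5 group means, and mRpS18C spanned 0.18. Of the nearest 5 genes on each side of mRpS18A, 3 were tested and 0 were called in any altered strain. Sas-4 lies on the same arm with 164 genes between them.

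mRpL20, on 3L, belongs to a bacterial family whose Escherichia coli member binds ribosomal RNA early in large subunit assembly. The DSas-4 arrays read 9.74, 9.89 and 9.43, against 10.13, 10.01 and 10.04 in w67 and 9.94, 10.06 and 10.07 in OregonR. All 3 DSas-4 arrays lay below the 6 wild-type arrays, and replicate 3 was the lowest by a wide margin. The difference was -0.37 from w67 (1.30-fold, SE 0.09, limma adjusted p = 0.0318) and -0.34 from OregonR (1.27-fold, adjusted p = 0.0216). Without DSas-4 replicate 3 the differences were -0.25 and -0.21 and neither passed (limma adjusted p = 0.0554 and 0.0507), whereas mRpS18A kept its call at -0.49 and -0.53. mRpL20 also lost its call when any single w67 array, OregonR replicate 2 or OregonR replicate 3 was left out. In DSas-6 it averaged 10.08 and in SakOE 10.00, close to the wild types. Of the 6 tested neighbours of mRpL20, CG17672 was called lower in DSas-4; it was named after its values were seen.

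mRpS31, on 3L, encodes a small subunit protein of a family without a bacterial member. The SakOE arrays read 9.85, 9.81 and 9.70, against 9.24, 9.24 and 9.14 in w67 and 9.20, 9.27 and 9.29 in OregonR. No SakOE array overlapped any of the other 12 arrays, since DSas-4 read 9.25, 9.30 and 9.22 and DSas-6 read 9.24, 9.11 and 9.22. The difference was 0.58 from w67 (1.49-fold, SE 0.054, limma adjusted p = 9.84e-06) and 0.53 from OregonR (1.45-fold, adjusted p = 1.89e-05). mRpS31 had the smallest p of all members in the F test over the 5 groups (adjusted p = 1.26e-05).

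The gene next to mRpS31 in RefSeq order, hzg, was the 1 neighbour tested, and it was singled out after its values were seen. It averaged 9.07 ± 0.068 in SakOE, against 10.42 ± 0.035 in w67 and 10.29 ± 0.067 in OregonR (SD, n = 3 each). Its differences were -1.35 (2.56-fold, limma adjusted p = 2.78e-08) and -1.22 (2.33-fold, adjusted p = 5.6e-08), opposite in sign to those of mRpS31. hzg does not overlap mRpS31 in RefSeq, but mib1, on the other side and not tested here, does. Whether the probes of mRpS31 also detect RNA of mib1 was not tested.

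**Figure D2:**
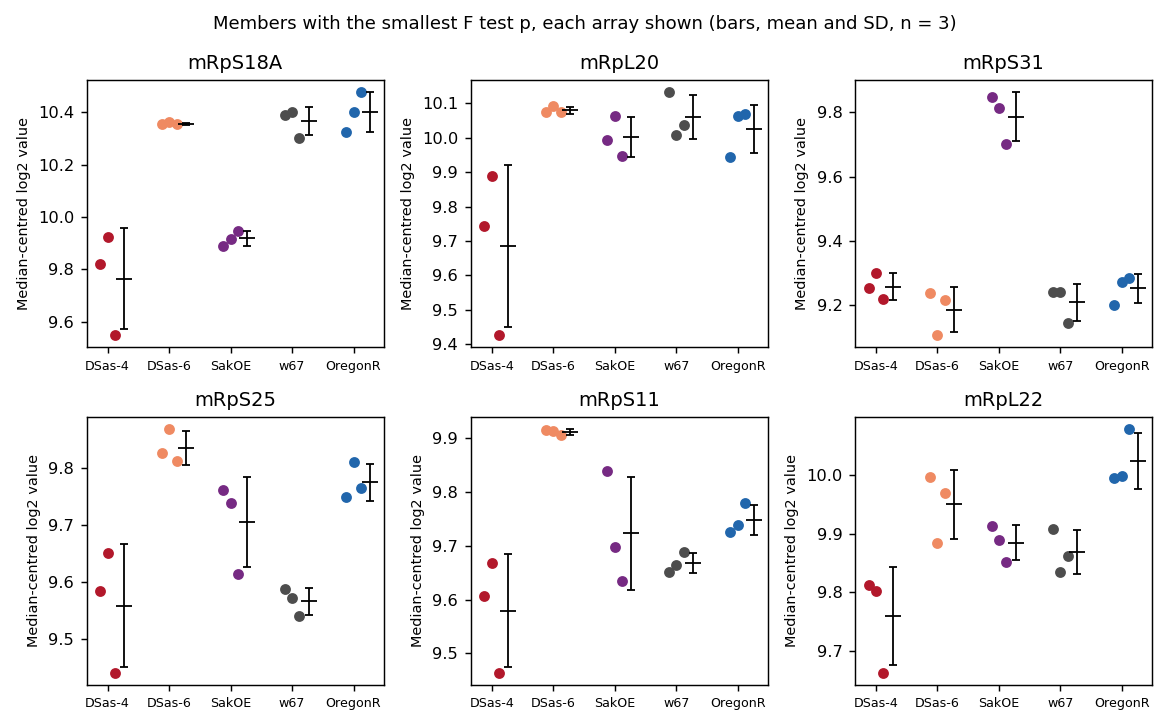
Median-centred log2 value (y axis) on each array of the 5 groups (x axis) for the 6 genes with the smallest F test p; coloured points are arrays, and black marks the group mean with its SD (n = 3). mRpS18A is low in DSas-4 and SakOE alone, mRpS31 is high in SakOE alone, and the low mRpL20 mean in DSas-4 includes 1 array at 9.43.

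The single comparisons behind these calls gave a different count for each wild type. DSas-4 against w67 gave 2 members past the threshold, both lower (4.6% of all genes, 2.17% higher and 2.44% lower), with a median difference of -0.04 and 48 of 69 members below 0. DSas-4 against OregonR gave 13 members, all lower (18.8% of the members, against 17.9% of all genes, 8.62% higher and 9.32% lower). The median there was -0.11, and 60 of 69 members lay below 0, or 87% against 51.8% of all genes. With the deposited values not centred, the median was -0.015 over the members and 0.083 over all genes, and 4 members passed as higher and 2 as lower, against 20.5% and 4.43% of all genes. Without OregonR replicate 3, the array with the gut gene, 5 members passed, all lower, against 5.26% of all genes higher and 5.08% lower. Without OregonR replicate 2, 3 members passed, all lower, against 6.02% and 5.52%. With centring, the median over all genes was within 0.014 of 0 in every comparison.

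Those 13 were mRpL17, mRpL20, mRpL21, mRpL22, mRpL24, mRpL27, mRpL41, mRpL42, mRpL51, mRpS2, mRpS18A, mRpS22 and mRpS25. mRpL22 and mRpL24 belong to bacterial families at the exit of the peptide tunnel, and mRpL27 to a family near the peptidyl transferase centre. mRpL22 read 9.81, 9.80 and 9.66 in DSas-4, against 9.99, 10.00 and 10.08 in OregonR and 9.91, 9.83 and 9.86 in w67. All 3 DSas-4 arrays lay below the 6 wild-type arrays, by little for w67. The mRpL22 difference was -0.26 from OregonR (limma adjusted p = 0.00411) and -0.11 from w67 (adjusted p = 0.292). mRpL27 had the largest difference from OregonR among members not called against both, -0.34, with arrays at 9.40, 9.59 and 9.11 in DSas-4, against 9.67, 9.78 and 9.68 in OregonR. The w67 arrays of mRpL27, at 9.42, 9.58 and 9.40, overlapped those of DSas-4.

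DSas-4 replicate 3 weighed on these values. In it 66 of 69 members lay below their own group mean, against 17 in replicate 1 and 12 in replicate 2. Its median deviation from each member's mean over the 15 arrays was -0.16, against -0.04 and -0.02 on the other DSas-4 arrays. Genes of oxidative phosphorylation deviated by a median of -0.13 on that array, against 0.01 and 0.00 on the other 2, and cytosolic ribosomal proteins by -0.07, against -0.03 and -0.05. Without it DSas-4 against OregonR gave 5 members, 1 higher and 4 lower, against 5.79% and 5.61% of all genes. Of these 5, mRpL21, mRpL22, mRpL42 and mRpS18A were among the 13. The median over the members was -0.06. DSas-4 against w67 then had a median of 0.00.

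**Figure D3:**
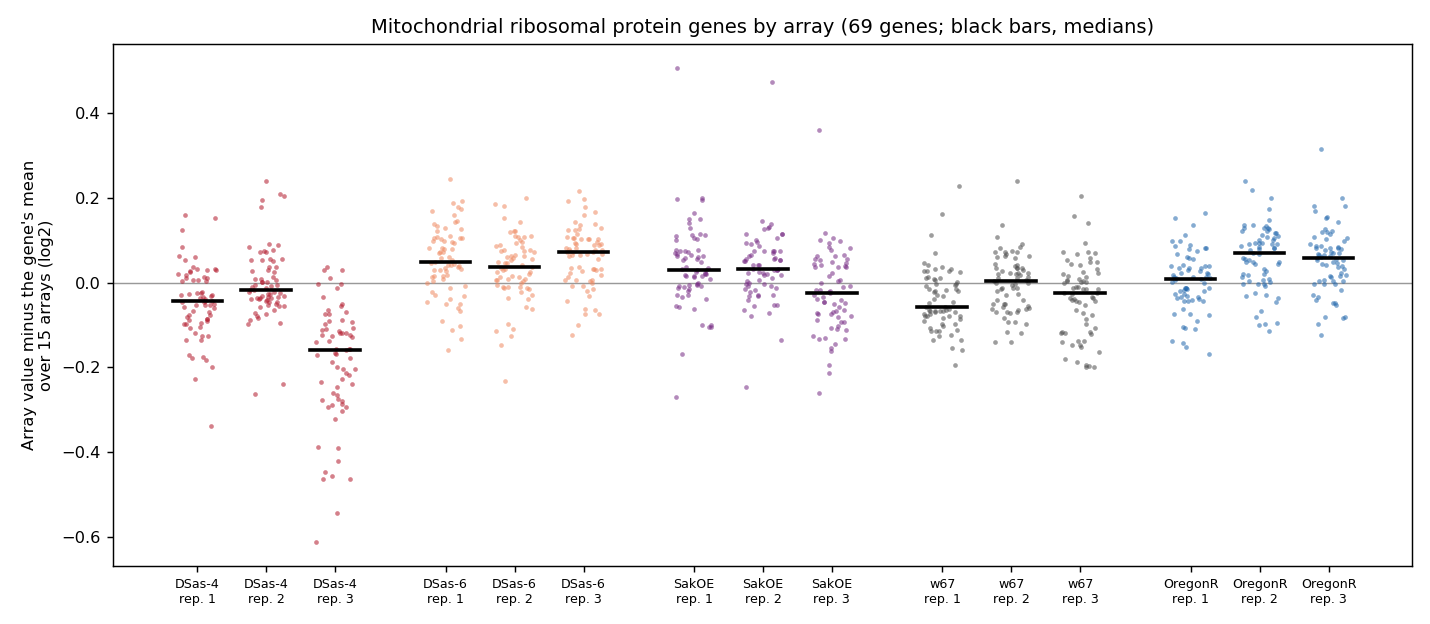
Value of each of the 69 genes on each of the 15 arrays as a difference from that gene's mean over the arrays (y axis, log2), with 1 column of points per array (x axis) and black bars for the medians. DSas-4 replicate 3 has the lowest median, -0.16, and the 3 DSas-6 arrays lie at 0.05, 0.04 and 0.07.

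DSas-6 members stood above w67 and level with OregonR. Against w67 the median difference was 0.08 (not centred, -1e-04 over the members and -0.081 over all genes), 57 of 69 members lay above 0, and 2 passed the threshold, both higher (14.3% of all genes, 6.22% higher and 8.1% lower). Not centred, 1 member was higher and 3 were lower, against 3.05% and 18.4% of all genes. Against OregonR the median was 0.01, 38 members lay above 0, and 0 passed by limma (14.6% of all genes, 6.65% higher and 7.96% lower). At an unadjusted p under 0.05 there were 7, beside 2001 of all 6973 genes. The 2 that passed against w67 were mRpS25 and mRpS11, both of the small subunit.

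mRpS25, on the X chromosome, encodes a protein of a family found in mitochondria alone. It read 9.83, 9.87 and 9.81 in DSas-6, against 9.59, 9.57 and 9.54 in w67 and 9.75, 9.81 and 9.77 in OregonR. The DSas-6 arrays lay above every wild-type array, but the gap to OregonR was small. Its difference was 0.27 from w67 (limma adjusted p = 0.00789) and 0.06 from OregonR, which did not pass. mRpS25 was also the 1 member that differed between the wild types, at -0.21 for w67 minus OregonR (adjusted p = 0.0422), and it was lower in DSas-4 than in OregonR by a difference of -0.22 (adjusted p = 0.0193). The call between the wild types was lost in 12 of 22 alternative settings, among them without any single w67, OregonR or DSas-6 array, and that of DSas-4 against OregonR in 5, among them without DSas-4 replicate 3, OregonR replicate 2 or OregonR replicate 3.

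mRpS11, on 3R, encodes a counterpart of the bacterial platform protein S11. It read 9.91, 9.91 and 9.90 in DSas-6, against 9.65, 9.66 and 9.69 in w67 and 9.72, 9.74 and 9.78 in OregonR. All DSas-6 arrays lay above the wild-type arrays, and DSas-4, at 9.61, 9.67 and 9.46, overlapped w67 or lay below it. The difference was 0.24 from w67 (limma adjusted p = 0.0164) and 0.16 from OregonR (adjusted p = 0.0822), so mRpS11 was not called on this probe set. A second probe set of mRpS11, described in a later section, passed against both wild types in DSas-6 (differences 0.25 and 0.38).

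SakOE members were spread about both wild types. Against w67 the median difference was 0.04 (not centred, -0.087 over the members and -0.12 over all genes), 45 of 69 lay above 0, and 1 was higher and 1 lower (17.1% of all genes, 8.92% higher and 8.2% lower). Not centred, 1 member was higher and 7 were lower, against 4.57% and 28.1% of all genes. Against OregonR the median was -0.02, with 1 higher and 3 lower (18.2% of all genes, 9.52% higher and 8.69% lower). The 3 lower were mRpS18A, mRpL44 (difference -0.17) and mRpS9 (difference -0.15), a counterpart of bacterial S9. Neither of the last 2 passed against w67.

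The wild types differed from each other on a similar scale. For w67 minus OregonR the median over the members was -0.06 (not centred, 0.041 over the members and 0.096 over all genes). There 53 of 69 lay below 0 and 1 passed, mRpS25 (7.13% of all genes, 3.48% higher and 3.64% lower). At an unadjusted p under 0.05 there were 14, beside 1594 of all 6973 genes. Not centred, 2 members were higher and 0 lower, against 13.8% and 1.92% of all genes. With centring, this median is larger in size than those of DSas-4 against w67, of SakOE against both wild types and of DSas-6 against OregonR.

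Counting arrays in place of tests, 6 members had all 3 DSas-4 arrays below all 6 wild-type arrays (5.82% of all genes did) and 1 had them above (5.61%). The 6 were mRpL20, mRpL21, mRpL22, mRpS18A, mRpS18C and mRpS24, and the 1 was mRpS30. In DSas-6 there were 8 above (7.66% of all genes) and 1 below (10.1%). The 8 were mRpL16, mRpL23, mRpL36, mRpS5, mRpS11, mRpS25, mRpS30 and mRpS34, and mRpS14 was below. In SakOE mRpS31 was above (10.6%) and mRpL18 and mRpS18A were below (9.24%). In group means, DSas-4 lay below both wild types for 46 of 69 members (66.7%, against 35% of all genes), and DSas-6 lay above both for 38 (55.1%, against 33.1%). For cytosolic ribosomal proteins these shares were 67.7% and 54.8%, and for oxidative phosphorylation genes 54% and 32%. The DSas-4 means include replicate 3, in which 66 of 69 members lay below their own group mean.

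mRpS30, whose mammalian counterpart lies in the large subunit, was the 1 member whose DSas-4 and DSas-6 arrays both lay above the wild types. It read 9.76, 9.69 and 9.63 in DSas-4 and 9.63, 9.66 and 9.68 in DSas-6, against 9.50, 9.55 and 9.61 in w67 and 9.49, 9.57 and 9.61 in OregonR. The gap between the groups was small, and mRpS30 was not called in either mutant.

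Across the 5 groups 13 of 69 members (18.8%) passed the moderated F test, against 40.2% of all tested genes. They were 8 of 44 with large subunit names (18.2%: mRpL17, mRpL20, mRpL21, mRpL22, mRpL24, mRpL27, mRpL41 and mRpL42) and 5 of 25 with small subunit names (20%: mRpS9, mRpS11, mRpS18A, mRpS25 and mRpS31). By the number in the symbol, members grouped as shared with bacteria gave 9 of 40 and those grouped as mitochondrial 4 of 29. The members lie on all large arms, and those that passed were 2 of 12 on 2L, 2 of 10 on 2R, 4 of 17 on 3L, 3 of 19 on 3R and 2 of 11 on X.

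The distance between the highest and the lowest group mean had a median of 0.17 over the members, against 0.25 over all genes. It was smallest for mRpL43, at 0.07, and largest for mRpS18A, at 0.64, and it exceeded 0.5 in mRpS18A and mRpS31 alone. The pooled SD within groups had a median of 0.072 over the members and 0.0926 over all genes. The 95% confidence interval of a difference from a wild type was taken from limma's moderated standard error. It lay wholly within 1.5-fold in either direction for 67 to 69 of the 69 members, depending on the comparison, against 85.9% to 90.7% of all genes.

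**Figure D4:**
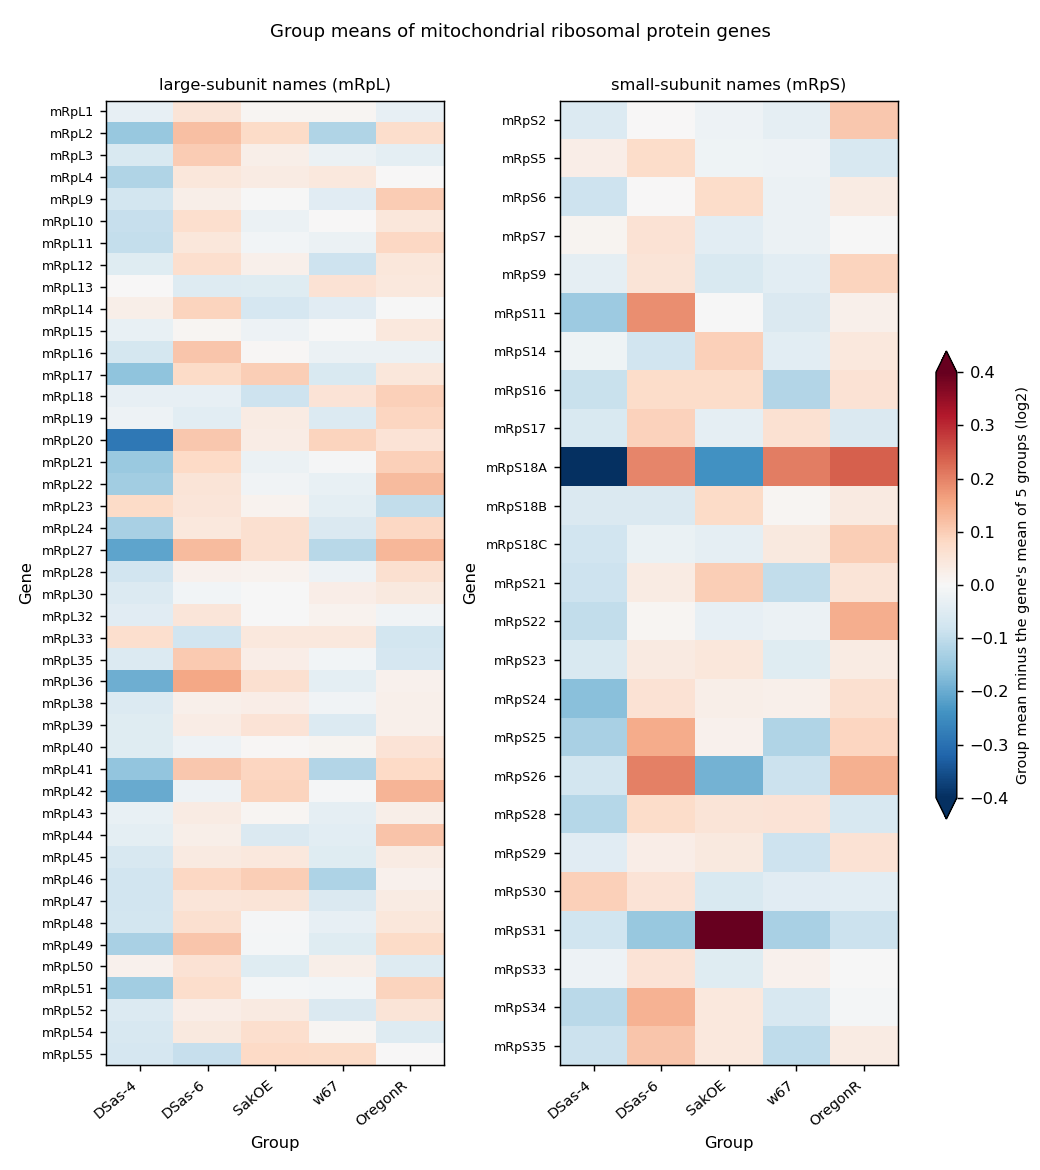
Group mean minus the gene's mean over the 5 groups (colour, log2) for each gene (rows; left panel mRpL, right panel mRpS) and group (columns). DSas-4 has the lowest mean for 42 of 69 genes (22 without its replicate 3, 20 with values not centred), and the strongest colours are mRpS18A in DSas-4 and mRpS31 in SakOE.

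By group mean, DSas-4 was lowest for 42 of 69 members, w67 for 10, SakOE for 8, DSas-6 for 5 and OregonR for 4. DSas-6 was highest for 28, OregonR for 23, SakOE for 14, DSas-4 for 3 and w67 for 1. Without DSas-4 replicate 3 DSas-4 was lowest for 22 and w67 for 21. With the deposited values not centred, SakOE was lowest for 29 and DSas-4 for 20, and w67 was highest for 25. The order of the groups differed between these settings.

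Grouped by bacterial role, a grouping made after their values were seen and with no test, members differed in the span of their group means. Those of the stalk and its base, mRpL10, mRpL11 and mRpL12, spanned 0.16, 0.18 and 0.15. Of those near the peptidyl transferase centre, mRpL2 spanned 0.27, mRpL3 0.16, mRpL16 0.18 and mRpL27 0.34, and of these mRpL27 passed the F test. mRpL4, of a family inside the peptide tunnel, spanned 0.16. Around the exit of the peptide tunnel, mRpL22 spanned 0.26, mRpL23 0.18 and mRpL24 0.21, and mRpL22 and mRpL24 passed the F test.

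The members with the largest SD within groups were mRpS26 (0.154), mRpS21 (0.149) and mRpL36 (0.134), and 0 of the 3 were called in any comparison by limma. Each was lowest in replicate 3 of DSas-4. mRpS26, of a mitochondrial family, read 8.96, 9.26 and 8.63 there. mRpS21 and mRpL36, counterparts of the small bacterial proteins S21 and L36, read 10.60, 10.84 and 10.21 and 9.40, 9.67 and 9.13.

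Cytosolic ribosomal proteins and subunits of oxidative phosphorylation had medians near those of the members. Against OregonR, DSas-4 had a median of -0.08 over 31 cytosolic ribosomal proteins and -0.06 over 50 oxidative phosphorylation genes, beside -0.11 for the members. DSas-6 against w67 had 0.08 and 0.04, beside 0.08, and w67 against OregonR had -0.07 and -0.05, beside -0.06. The F test passed 6 of the 31 (19.4%) and 7 of the 50 (14%). No difference between these lists and the members was tested.

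Mitochondrial ribosomal protein genes under other names were measured too. tko averaged 10.40 in DSas-4, 10.48 in DSas-6 and 10.49 in SakOE, against 10.38 in w67 and 10.53 in OregonR. bonsai averaged 9.95, 10.05 and 10.03 in the same 3 strains, against 9.96 in w67 and 10.08 in OregonR. Neither was called in any strain.

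Genes that work with the mitochondrial ribosome were described from lists of translation factors, aminoacyl-tRNA synthetases and factors of mitochondrial transcription and RNA processing. Of 9 translation factors tested, 1 was called, in 2 strains. As given above, 3.43%, 6.24% and 9.26% of all genes were called in DSas-4, DSas-6 and SakOE, so nothing is read from 1 call in lists of this size. mEFTu1, the elongation factor that brings aminoacyl-tRNA to the ribosome, averaged 10.45 in DSas-6 and 10.40 in SakOE, against 10.15 in w67 and 10.20 in OregonR. It rose in DSas-6 by 0.30 and 0.25 (limma adjusted p = 0.00408 and 0.0104 against w67 and OregonR) and in SakOE by 0.25 and 0.20 (adjusted p = 0.00764 and 0.0252). The call against OregonR was lost in 4 of 22 settings in SakOE (without SakOE replicate 1 or any single OregonR array) and in 1 in DSas-6 (without its replicate 1), and that against w67 in 1 in SakOE (values not centred).

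Of 21 synthetases and related genes tested, 3 were called, 1 in each strain, beside the same shares of all genes. MetRS-m, which charges mitochondrial tRNA with methionine, averaged 5.66 in SakOE, against 6.16 in w67 and 6.24 in OregonR, and fell there by 0.51 and 0.59 on the log2 scale (limma adjusted p = 0.000947 and 0.000272). Slimp, a relative of the mitochondrial seryl-tRNA synthetase that does not charge tRNA, averaged 6.46 in DSas-4, against 6.75 and 6.68 (differences -0.30 and -0.22, adjusted p = 0.0293 and 0.0457). ProRS-m, the prolyl enzyme, averaged 7.57 in DSas-6, against 7.32 and 7.39 (differences 0.25 and 0.18, adjusted p = 0.0101 and 0.0465). Slimp lost its call against OregonR in 14 of 22 alternative settings and ProRS-m in 11, while MetRS-m lost neither of its calls.

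Of 13 genes of transcription and RNA processing tested, 1 was called. mtTFB2, a transcription factor that opens mitochondrial promoters with the polymerase, averaged 8.37 in DSas-4 and 8.36 in DSas-6, against 8.15 in w67 and 8.14 in OregonR. It rose in DSas-4 by 0.22 and 0.24 (limma adjusted p = 0.0205 and 0.00585) and in DSas-6 by 0.21 and 0.22 (adjusted p = 0.0144 and 0.00883). Its call against w67 was lost in 4 of 22 settings in each mutant, and that against OregonR in 0. In SakOE mtTFB2 averaged 8.30, with differences of 0.15 from w67 (limma adjusted p = 0.0553) and 0.16 from OregonR (adjusted p = 0.0352). It was not called in SakOE, and passing against OregonR there was lost in 8 of 22 settings. None of 7 listed assembly factors of the mitochondrial ribosome was matched to a gene of the table, so they have no value here.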

How the data were processed

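The authors deposited 1 value per probe set and array from Affymetrix Drosophila Genome 2.0 arrays, made with GCRMA per the submitters' processing notes, which also name limma; no version is given in the sources used here. Their range, 2.174 to 15.03, and the use of GCRMA are the grounds for reading these deposited values as log2 expression. They took 4 distinct lowest values over the 15 arrays. Exact ties (tolerance 1e-09) occurred 411 times between arrays sharing a lowest value and 0 times between others.

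Of 18952 probe sets, 13647 had 1 symbol in the platform annotation, and 13544 of these were found in RefSeq Release 6. The 69 members came from 71 probe sets, all matched. Each array was centred on its median over 6973 genes with at least 4 on at least 3 arrays, and limma 3.58.1 in R 4.3.3 (lmFit, eBayes) fitted a mean for each group over all 15 arrays. Tests were two-sided, with Benjamini-Hochberg adjustment over all genes tested in each comparison and a threshold of 0.05. The script was tested on simulated data. The number of arrays, 3 per group, limits the precision.

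Named without further choice were members called against both wild types, members past the threshold in DSas-4 against w67 or w67 against OregonR, the 6 with the smallest F test p, the 3 with the largest SD, tko, bonsai and called genes of the related lists; other members were named to spell out counts or after their values were seen. Members and lists were chosen with earlier results of these data known. The values gave no sign that replicate numbers pair the samples. Deviations of same-numbered arrays correlated at -0.324 to 0.306 over 30 pairs (median -0.0538). Those of other-numbered arrays correlated at -0.371 to 0.348 over 60 pairs (median 0.0182). Chromosome arms, gene order and overlaps come from RefSeq Release 6, whose coordinates are not printed because the files name no build; no sequence was used.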

Additional observations from a re-analysis of the deposited data

Results flagged for a closer look

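A second probe set of mRpS11, outside the comparisons above because its mean is lower, read 9.81, 9.70 and 9.81 in DSas-6, against 9.51, 9.51 and 9.55 in w67 and 9.36, 9.44 and 9.38 in OregonR. All 3 DSas-6 arrays lay above the 6 wild-type arrays. It was higher in DSas-6 than in w67 by 0.25 (limma adjusted p = 0.0196) and than in OregonR by 0.38 (adjusted p = 0.00166), and so passed against both wild types, which the probe set used for the gene did not (0.24 and 0.16). These probe sets placed OregonR differently. On the second, w67 minus OregonR was 0.13 and SakOE minus OregonR 0.31 (limma adjusted p = 0.00437). On the one used for the gene they were -0.08 and -0.02. Which of them reads the gene better was not tested. The second probe set of mRpL47 passed against neither wild type in the mutants and was higher in SakOE than in w67 by 0.25 (adjusted p = 0.0291) without passing against OregonR. The probe sets shared with other genes, of mRpS10 with CG34316 and of mRpL53 with CG33155, were called in 0 strains by limma; the first was lower in DSas-4 than in OregonR (difference -0.20, adjusted p = 0.00801), and the second was higher in SakOE than in OregonR (difference 0.23, adjusted p = 0.0396).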

How the results depend on the processing

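mRpS18A in DSas-4 and SakOE and mRpS31 in SakOE kept their calls in all 22 alternative settings. Of the values that answer a comparison, 331 stayed within 1.5 times or within the spread of the arrays and 64 moved; no called member changed sign. Members called in DSas-4 against both wild types, 2 as reported, were 1 (mRpS18A) with the deposited values not centred, with no filter and with only the groups of the comparison; in DSas-6, 0 as reported, they were 1 (mRpS11) with the mean of all probe sets and with only the groups of the comparison. With deposited values not centred, the all-gene median shifted by up to -0.12 (SakOE minus w67) and 0.10 (w67 minus OregonR), and members past the threshold were 6 for DSas-4 minus OregonR (4 higher, 2 lower), 4 for DSas-6 minus w67 (1 higher, 3 lower), 8 for SakOE minus w67 (1 higher, 7 lower) and 2 for w67 minus OregonR (both higher); member medians were -0.015, -1e-04, -0.087 and 0.041 in these 4 comparisons. The all-gene medians there were 0.083, -0.081, -0.12 and 0.096. Centring shifts every gene on an array by the same amount. It cannot change where the members lie beside all genes, so nothing is read from that. With no filter 11982 genes were tested, and each array was still centred on its median over the 6973 filtered genes. The all-gene median difference then lay between -0.09 and 0.11. The counts were 1 for DSas-4 minus w67 (lower, 1.18% of all genes lower), 26 for DSas-4 minus OregonR (24 lower, 44.4% of all genes lower) and 11 for DSas-6 minus w67 (10 higher, 40.4% higher). They were 1 for DSas-6 minus OregonR (higher, 5.15% higher), 9 for SakOE minus w67 (8 higher, 44.5% higher), 12 for w67 minus OregonR (all lower, 41.3% lower) and 28 in the F test. With only the groups of the comparison they were 1 for DSas-4 minus w67, 2 for DSas-4 minus OregonR, 5 for DSas-6 minus w67 and 0 for w67 minus OregonR. With the mean of all probe sets they were 2 for DSas-6 minus OregonR (7.7% of all genes higher, 7.41% lower) and 4 for SakOE minus w67 (11.6% and 7.02%). With the replicate number as a block, 2 members passed for SakOE minus OregonR in place of 4, beside 9.16% of all genes higher and 7.93% lower. No other count moved by over 1.5 times with that block. The cause of these shifts was not tested. Leaving out single arrays gave 1 to 3 members in DSas-4, 0 in DSas-6 and 2 in SakOE against both wild types. For DSas-4 minus w67 the count was 1 to 3 (3 without DSas-4 replicate 2, beside 1.88% of all genes higher and 2.18% lower). For DSas-4 minus OregonR it was 3 to 20. The 3 came without OregonR replicate 2 (6.02% of all genes higher, 5.52% lower) and the 20 without DSas-4 replicate 2 (7.2% and 8.79%). The count was 1 to 9 for DSas-6 minus w67 (9 without DSas-4 replicate 3, beside 6.48% and 7.94%). It was 0 to 1 for DSas-6 minus OregonR (1 without OregonR replicate 3, beside 4.33% and 5.58%). For SakOE minus w67 it was 2 to 7 (7 without DSas-4 replicate 3, beside 9.35% and 8.05%). For SakOE minus OregonR it was 2 to 4 (2 without SakOE replicate 3, among others, beside 6.47% and 6.18%). For w67 minus OregonR it was 0 to 4 (4 without DSas-4 replicate 3, beside 3.47% and 4.03%). In the F test it was 8 (without DSas-6 replicate 1) to 21 (without DSas-4 replicate 2). Shares of all genes were not computed for the F test or for calls against both wild types in these settings. They were not computed with only the groups of the comparison either.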
